A study of Mus musculus with 2 samples.

Results

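Sap130 summits just outside single genes are peak summits that lie in no protein-coding gene and within 1000 bp of a boundary of exactly 1 such gene. They were chosen by position alone, from a list of peak summits called in embryonic mouse heart (strain C57BL/6, stage E12.5), and numbered 1173 of 14881 summits on nuclear chromosomes (7.88%, Wilson 95% interval 7.46 to 8.33). The list compared 1 chromatin immunoprecipitation (ChIP) library, made with a rabbit antibody against Sap130, with 1 input library of DNA from the same stage, tissue and strain taken without antibody. How many hearts were used, and whether they were pooled, is not stated in the labels. The study's stated purpose was to examine the targets of Sap130. There was 1 library of each kind, so no difference here has a replicate check or a test, and intervals cover counting error only. The authors' score of a summit, on a −log10 scale of p or q, depends on read depth, which is unknown. It was used only to rank summits within this list. A peak list holds no expression values, so the tissue label could not be checked against marker genes.

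Sap130 is a subunit of the Sin3 corepressor complex, which carries histone deacetylases and is brought to DNA by other factors such as the Mxd proteins. In many mammalian genes the region around the start is rich in CG dinucleotides (a CpG island), is depleted of nucleosomes, and gives rise to transcripts in both directions. The divergent transcript on the upstream side is often a long noncoding RNA (lncRNA). A summit outside a gene can thus lie before its start, within reach of such a divergent unit, or beyond its last base.

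The start regions below are those of the 6 highest-scoring and the 2 lowest-scoring summits outside a gene for which the summit fell in the 250 bases before an annotated start that is also the gene boundary. They are shown because they hold the DNA under the summit itself. Each is the 250 bases before the start, 5′ to 3′ on the gene's strand, from RefSeq on build GRCm38.p6. Capitals mark a match, on either strand, to 1 of 13 short motifs, which are spelled out further on; a match is a description, not a binding site.
Psme3: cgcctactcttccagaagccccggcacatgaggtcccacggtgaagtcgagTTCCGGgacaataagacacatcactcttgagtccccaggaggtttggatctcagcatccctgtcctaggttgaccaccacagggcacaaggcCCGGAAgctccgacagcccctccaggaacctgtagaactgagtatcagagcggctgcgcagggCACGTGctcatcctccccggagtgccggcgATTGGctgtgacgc
Ccng2: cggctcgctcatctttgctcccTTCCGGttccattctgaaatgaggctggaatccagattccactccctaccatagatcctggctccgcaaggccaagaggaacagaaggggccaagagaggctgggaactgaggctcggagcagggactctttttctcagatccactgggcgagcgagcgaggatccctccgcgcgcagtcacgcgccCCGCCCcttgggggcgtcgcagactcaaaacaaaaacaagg
3110082I17Rik: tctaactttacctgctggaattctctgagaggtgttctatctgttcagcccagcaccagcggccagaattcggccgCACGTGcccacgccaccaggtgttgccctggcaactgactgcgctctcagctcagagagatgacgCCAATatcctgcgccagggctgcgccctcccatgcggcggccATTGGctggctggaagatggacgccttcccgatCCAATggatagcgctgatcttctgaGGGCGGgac
Cfap298: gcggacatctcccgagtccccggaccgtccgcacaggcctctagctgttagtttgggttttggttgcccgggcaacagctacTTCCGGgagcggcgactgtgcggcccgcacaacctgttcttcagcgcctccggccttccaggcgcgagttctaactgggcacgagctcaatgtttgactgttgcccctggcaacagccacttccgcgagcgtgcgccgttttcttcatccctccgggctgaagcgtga
Diablo: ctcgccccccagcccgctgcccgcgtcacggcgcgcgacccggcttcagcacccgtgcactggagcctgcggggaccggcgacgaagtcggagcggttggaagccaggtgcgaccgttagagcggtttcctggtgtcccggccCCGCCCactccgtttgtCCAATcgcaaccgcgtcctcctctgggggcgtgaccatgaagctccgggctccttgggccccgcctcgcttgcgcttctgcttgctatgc
Cry1: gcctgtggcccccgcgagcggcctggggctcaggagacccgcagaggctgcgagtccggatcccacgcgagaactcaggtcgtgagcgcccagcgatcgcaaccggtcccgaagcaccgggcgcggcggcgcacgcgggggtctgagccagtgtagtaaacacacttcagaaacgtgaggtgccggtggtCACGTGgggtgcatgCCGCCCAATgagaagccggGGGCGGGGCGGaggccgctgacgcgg
Trp73: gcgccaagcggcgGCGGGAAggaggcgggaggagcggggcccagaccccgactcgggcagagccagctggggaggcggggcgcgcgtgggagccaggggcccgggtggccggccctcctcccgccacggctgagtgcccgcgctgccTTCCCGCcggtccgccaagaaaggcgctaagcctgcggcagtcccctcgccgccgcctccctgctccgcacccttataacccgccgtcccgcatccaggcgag
Otud1: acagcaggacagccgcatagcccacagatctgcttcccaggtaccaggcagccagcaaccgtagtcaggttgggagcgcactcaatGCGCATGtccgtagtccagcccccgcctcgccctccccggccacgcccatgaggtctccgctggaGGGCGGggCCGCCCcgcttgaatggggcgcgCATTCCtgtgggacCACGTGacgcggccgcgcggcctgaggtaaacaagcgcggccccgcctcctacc
Psme3, of a nuclear activator of the proteasome, has its stretch on the plus strand at chr11:101315963-101316212, and its summit, with a score of 274, lies at base 113, 138 bp from the start. Ccng2, of cyclin G2, lies on the plus strand at chr5:93267323-93267572, with the summit (score 169) at base 90. The uncharacterised gene 3110082I17Rik lies on the minus strand at chr5:139460535-139460784, with a score of 143 and the summit at base 69. Cfap298, linked to motile cilia, is on the minus strand at chr16:90934850-90935099, with a score of 129 at base 55. Diablo, of a mitochondrial protein released in apoptosis, is on the minus strand at chr5:123524165-123524414, with a score of 122 at base 28. Cry1, a repressor of the circadian clock, is on the minus strand at chr10:85185055-85185304, with a score of 108 at base 83. The 2 weakest summits of this kind were at Trp73, of the p53 relative p73 (minus strand, chr4:154139876-154140125, score 3.02, base 128), and at Otud1, of a deubiquitinating enzyme (plus strand, chr2:19657481-19657730, score 2.59, base 166). The GC share of the 8 stretches ran from 59.6% at Ccng2 to 77.2% at Trp73. The ratio of observed to expected CG dinucleotides ran from 0.610 at Psme3 to 0.994 at Cry1 among the 6 strongest summits, and was 0.833 at Trp73 and 0.812 at Otud1.

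Summits outside genes were nearly all on the side of the start. A RefSeq table of starts gave the strand for 932 of the 1173 summits, and 899 of them (96.5%, Wilson interval 95.1 to 97.5) lay outside the boundary on the start side of the gene, while 33 lay beyond its other end. The same held for summits just inside exactly 1 gene, of which 6177 of 6243 with a known strand (98.9%, 98.7 to 99.2) were at the start. The left and right boundaries as the chromosome is numbered held 583 and 590 summits outside genes. The nearest listed start lay a median of 339 bp downstream of the summit (quartiles 245.5 and 470.5 bp, n = 899). It was within 1000 bp downstream for 854 of these summits (94.99%, 93.4 to 96.2), and the gene boundary was itself a listed start for 580 of these summits (64.5%).

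Summits outside genes gathered some way from the boundary rather than at it. The median distance was 301 bp (quartiles 216 and 407 bp), and 594 of 1173 summits (50.6%, interval 47.8 to 53.5) lay 201 to 400 bp out. The 50 bp bin with the most summits was that from 250 to 300 bp, with 181, whereas the first 50 bp outside held 50. Summits just inside 1 gene lay at a median of 243 bp from the boundary. The rule limits both distances to 1000 bp, so they describe the summits and are not tested. Nearest to their boundary, at 2 bp, were the summits of Ift52, of intraflagellar transport (score 110), and 5730409E04Rik (12.45). Those at 4 bp included Ass1, of arginine synthesis (10.2), Hydin (29.0), Arhgef12 (46.1) and Dhx30 (95.7). The farthest were those of Skil, a repressor of SMAD signalling, at 985 bp (6.99), Ache, acetylcholinesterase, at 977 bp (9.61), and Setd5, a SET domain protein, at 960 bp (50.02). Just beyond the limit, and so left out, lay summits of Aldh18a1 at 1002 bp (5.04), Rasd2 at 1007 bp (13.4) and Kif26b at 1018 bp (59.6).

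**Figure D1:**
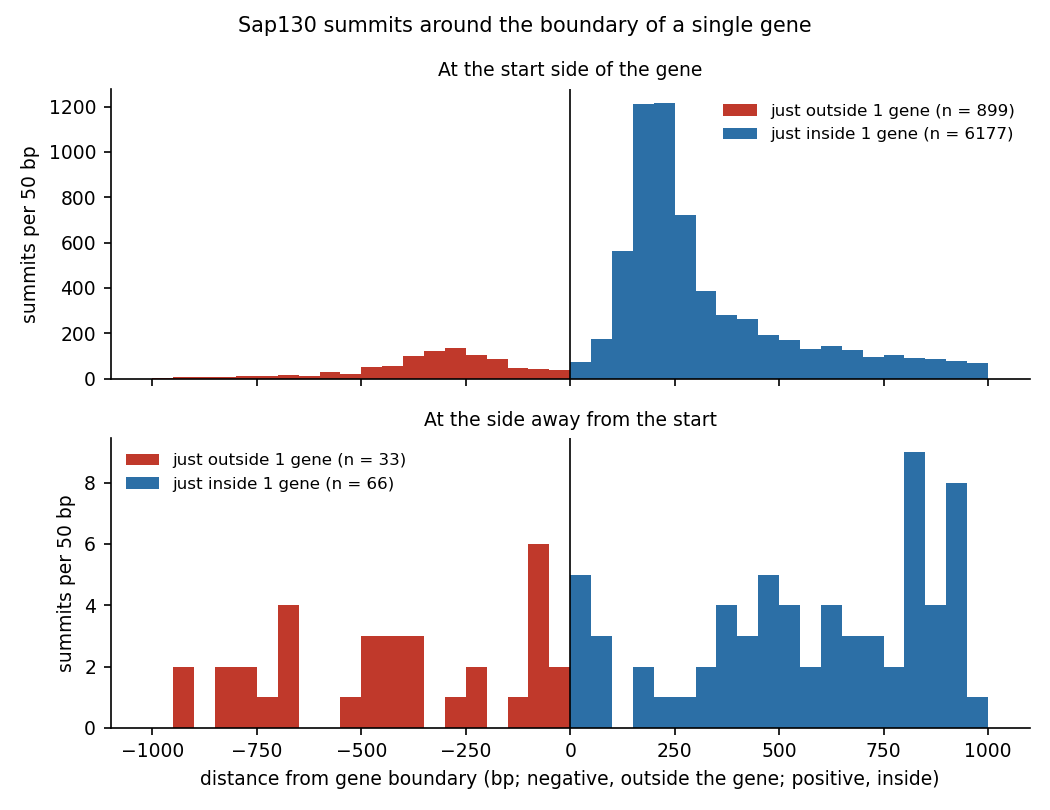
Number of Sap130 summits per 50 bp (y axis) by distance from the boundary of the only gene in reach (x axis, bp, negative outside the gene, positive inside), for summits just outside (red) and just inside (blue). The upper panel holds the start side, with 899 outside and 6177 inside, and the lower panel the other side, with 33 outside and 66 inside, on a smaller scale.

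Summits outside genes had low scores. Their median score was 16.1 (order-statistic 95% interval 15.1 to 17.5, quartiles 9.46 and 31.8, n = 1173), against 43.4 (42.1 to 44.5, quartiles 19.8 and 73.1, n = 7865) for summits just inside 1 gene and 33.3 over all nuclear summits. Low scores were not particular to them. The median was 19.5 (n = 3261) deeper inside genes and 13.2 (n = 683) beyond reach of every gene, but 50.3 (n = 1793) in reach of 2 or more genes. Below the lower quartile of all scores were 505 of the 1173 (43.1%, 40.2 to 45.9), against 17.04% of the summits just inside, and from the upper quartile up there were 101 (8.61%, 7.14 to 10.4), against 30.9%. At or above the median of all scores were 270 of the 1173 (23.0%, 20.7 to 25.5), at 1.24% of protein-coding genes, against 60.1% of the summits just inside. The summits just outside or just inside 1 gene, without the other classes, were also ordered by score in 10 bins. Those outside made up 28.8% (25.9 to 31.8) of the lowest bin and 3.32% (2.33 to 4.70) of the highest. At like distances the outside summits were also lower: 201 to 300 bp from the boundary their median was 16.3 (n = 317), against 53.6 (n = 2446) inside. From 801 to 1000 bp the medians were 10.2 (n = 38) outside and 25.8 (n = 432) inside. Before the start the median was 16.7, beyond the other end it was 8.24 (n = 33), and with no strand known it was 15.3 (n = 241).

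**Figure D2:**
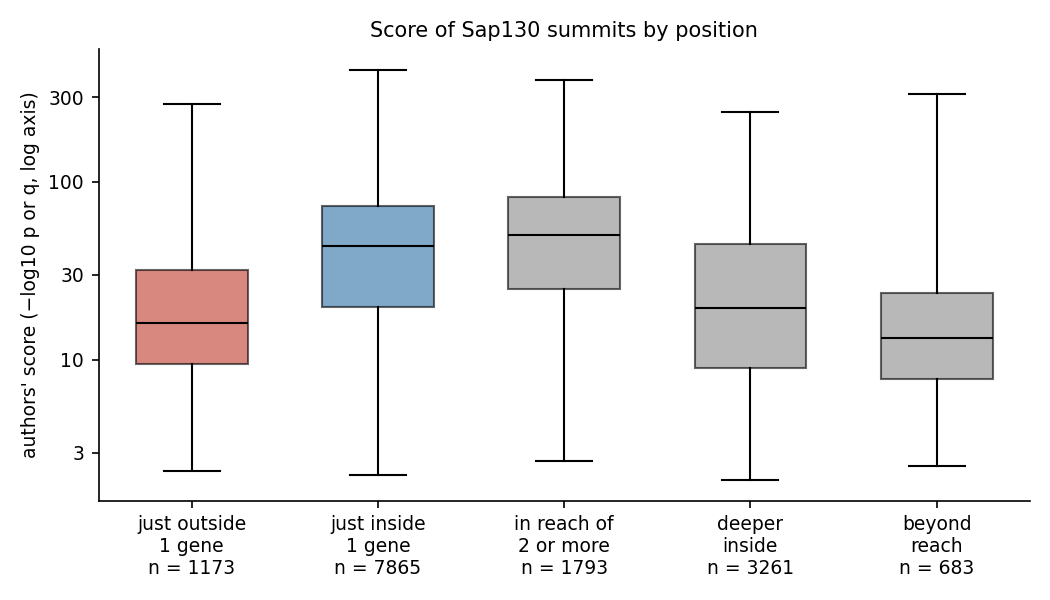
Authors' score of Sap130 summits (y axis, −log10 of a p or q, log axis) for summits just outside 1 gene (red, n = 1173), just inside 1 gene (blue, n = 7865) and the other classes (grey). Boxes give the quartiles and the median, 16.1 outside and 43.4 inside, and whiskers the lowest and highest score.

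Most summits outside a gene were accompanied by another, stronger one on the other side of the same boundary. For 839 of the 1173 (71.5%, Wilson interval 68.9 to 74.0) the same gene held a summit inside it within 1000 bp of that boundary. Where it held several there, the one nearest the outside summit was taken. The outside summit of these pairs was a median of 324 bp out and the inside one 269 bp in, and they were a median of 625 bp apart (quartiles 526.5 and 803 bp, smallest spacing 321 bp). The outside score was below the inside one in 725 of 839 pairs (86.4%, 83.9 to 88.6), with medians of 15.1 outside and 56.2 inside. Summits with none inside the gene at all numbered 243 (20.7%, 18.5 to 23.1). They lay closer to the boundary, at a median of 195 bp, and had a median score of 22.3.

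In 114 pairs the outside summit had the higher score, and 6 of these are among the 20 highest scores outside genes. The summit outside Pou2f1, of the octamer-binding factor Oct1, had 235 against 84.5 inside. Outside Cecr2, of a bromodomain protein of a chromatin remodeller, it had 170 against 68.8 inside. Yy1, of a zinc finger factor of many promoters, had 141 outside and 18.5 inside, 552 bp apart. At Ctcf, of the insulator protein, the scores were 139 outside and 54.2 inside. At Sp4, of a factor that binds GC boxes, they were 138 outside and 9.56 inside. Taf4, of the general factor TFIID, had near-equal scores of 117 outside and 110 inside.

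**Figure D3:**
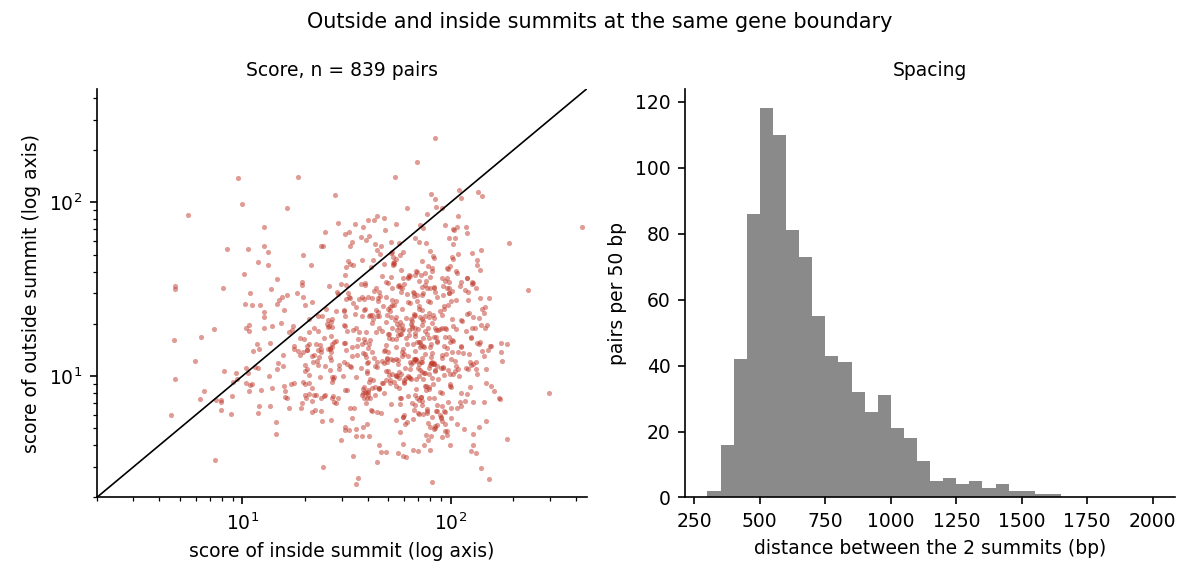
Left, score of the outside summit (y axis) against that of the nearest inside summit at the same gene boundary (x axis), both log axes, 1 point for each of 839 pairs, with the line of equal scores; 725 points lie below it. Right, number of pairs per 50 bp (y axis) by the distance between their summits (x axis, bp), with a median of 625 bp.

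The other genes among the 20 highest stood mostly alone. Psme3 and Ccng2 had no summit inside the gene, nor had Mxd3 (score 135), whose product is a partner of Max that recruits Sin3. The same was true of Ehmt2 (134), of the histone H3 lysine methyltransferase G9a, and Ubn2 (133), of ubinuclein 2, linked to histone deposition. Mcmdc2 (130), Cfap298 (129), Rap2a (126), of a small GTPase, Diablo (122), Rpl30 (120), of the large ribosomal subunit, and Zfp768 (118), of a zinc finger protein, also had none inside. Fam222a (138) and 3110082I17Rik (143) had 1 and 2 summits deeper in the gene. Atxn2 (115), of an RNA-binding protein, was the exception with a stronger inside summit, of 136. The summit of Ehmt2 was 1481 bp and that of Cfap298 1047 bp from the next protein-coding gene. Such neighbours within 2500 bp were found for 83 of the 1173 summits (7.08%).

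Summits outside genes often lay in lncRNA genes. Of the 1173, 254 (21.7%, interval 19.4 to 24.1) were inside an annotated lncRNA gene, against 483 of 7865 summits just inside coding genes (6.14%, 5.63 to 6.69). Over all nuclear summits it was 1281 of 14881 (8.61%, 8.17 to 9.07). By the rule the summits just inside lie in a coding gene, so a lncRNA gene that holds them must overlap that gene. Counting lncRNA genes within 1000 bp as well, the shares were 24.7% (22.3 to 27.3) and 16.5% (15.6 to 17.3). Where both strands were known on the start side, the lncRNA ran opposite to the gene in 192 of 198 cases (97.0%, 93.5 to 98.6), against 855 of 906 (94.4%, 92.7 to 95.7) for summits just inside. The start of these lncRNAs was a median of 267 bp from the outside summits (quartiles 175 and 690 bp) and 370 bp from the inside ones. The median score outside was 17.1 in a lncRNA gene and 15.7 in no gene of another type. The highest-scoring cases in a lncRNA gene, whatever its strand, were Ctcf with Gm5914 and Mcmdc2 with Snhg6, the host of small nucleolar RNAs, followed by Taf4 with 4921531C22Rik, Mex3d (104), of an RNA-binding protein, with Gm30823, and Ciart (104), of a circadian repressor, with C920021L13Rik. Only for Ctcf and Taf4 among these were both strands known, and there they were opposite. Setd5 had 2 summits outside, of 59.8 and 50.02, both in Gt(ROSA)26Sor, the noncoding locus Rosa26 used for transgenes. Relative to the nearest start listed for Setd5, which lies within the gene, the first of them is at -27862 bp, so they are at its start-side boundary but not near a listed start.

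The 33 summits beyond the other end were often at short genes and mostly weak. Their 31 genes had a median length of 3990 bp, against 33165 bp for the 883 genes with a summit before the start, and 16 of the 33 summits (48.5%) were at genes of 3000 bp or less, against 5.01% of the 899. Only 2 of the 33 reached the median score of all summits, those of Junb, of an AP-1 factor (72.3, 490 bp beyond the end), and of Tex2 (63.2, 930 bp beyond the end). The Tex2 summit lay in the lncRNA gene Gm36220, near Snord104. Histone genes, which are short and lie in clusters, gave 8 of the 33, led by H1f2, of a linker histone (25.3, 131 bp beyond the end). Each summit was placed by its nearer boundary. At some of the shortest genes, such as H1f2 of 725 bp, it was also within 1000 bp of the start-side boundary. Tmsb10, of thymosin beta 10, had 18.4, and Sox4, of a factor of outflow tract formation, 16.0 at 49 bp. Such genes made up 0.142% of all 21779 protein-coding genes. Pcbp1, an RNA-binding protein gene of 1710 bp, was the gene with the most summits outside, 3 in all: 1 before the start, of 92.6, and 2 beyond the end, of 17.8 and 15.4. Another 5 genes had summits on both sides, Fam120a, Foxc1, H4c8, Imp3 and Ubb, and in each the one before the start had the higher score. At Ubb, of polyubiquitin, these were 42.1 before the start and 9.004 beyond the end. Among genes with more than 1 summit on the start side, Abcf3, of an ATP-binding cassette protein of translation control, had 65.9 and 8.33, and Dyrk1a, of a protein kinase, 63.7 and 19.3.

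The DNA of starts with a summit outside was rich in CG. Over 883 such genes, in the window from 250 bases before to 50 after the listed start nearest the gene boundary, the GC share had a median of 67.3%, against 62.0% for 5310 genes with a summit just inside the start and none just outside. For 9019 genes with no summit in reach it was 49.3%. The ratio of observed to expected CG had medians of 0.867 (interval 0.856 to 0.882) with a summit outside, 0.785 (0.779 to 0.792) with one inside only, and 0.241 (0.235 to 0.248) with none. A ratio of at least 0.6, usual for CpG islands, was found for 90.4% (88.2 to 92.1), 80.3% (79.2 to 81.3) and 17.3% (16.5 to 18.1) of these sets in the same order. The window need not hold the summit, which was in its 250 upstream bases for 233 of the 899.

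Motifs of CG-rich promoters were common in the same windows. The GC box, GGGCGG, which Sp factors bind, was on either strand of 82.0% (79.3 to 84.4) of starts with a summit outside, 70.6% (69.4 to 71.8) of those with one inside only and 46.3% of all 17492 starts. The E-box CACGTG, bound by Myc, Max and Mxd proteins among others, was in 13.4% (11.3 to 15.8), 10.7% (9.93 to 11.6) and 7.91% of the same sets. The E2F motif GCGGGAA was in 11.1%, 9.19% and 6.01%, and the ETS motif CCGGAA in 24.7%, 27.7% and 19.1%. The CCAAT box was near-equal in all, with 40.9% (37.7 to 44.2), 38.5% (37.2 to 39.8) and 39.2%. It was less common where the summit outside stood alone: of 170 starts with a summit outside and none inside the gene, 22.9% (17.3 to 29.8) held CCAAT, 74.1% (67.1 to 80.1) the GC box and 17.6% (12.7 to 24.1) the E-box. At starts whose outside summit reached the median of all scores, 32.4% of 219 (26.6 to 38.9) held CCAAT, against 43.7% of 664 (39.9 to 47.5) for those below it. Shares for CATGCGC, part of the NRF1 motif, were 8.04%, 8.49% and 4.88%, for GATGGCG of YY1 7.81%, 6.44% and 4.45%, and for CTCGCGA of ZBTB33 5.55%, 4.09% and 2.75%. TGACGTC, part of the cyclic AMP response element, was in 6.80%, 6.08% and 3.98%. Less common with a summit outside or one inside only than over all starts were the TATA box TATAAA (4.19%, 6.59% and 13.3%), AGATAA of GATA factors (2.83%, 5.20% and 9.94%) and GGAATG of TEAD factors (9.63%, 11.7% and 13.5%). ACTACAA of ZNF143 (2.38%, 4.71% and 3.82%) was less common than over all starts with a summit outside, but more common with one inside only. The searches are independent of each other, letters of different motifs can overlap, and shares of CG-rich motifs move with the CG content given above. Of the sequences printed above, Cry1 holds the E-box, CCAAT and GC box letters, Psme3 the E-box, CCAAT and ETS letters, Trp73 the E2F letters on both strands, and Otud1 the letters of 4 motifs.

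**Figure D4:**
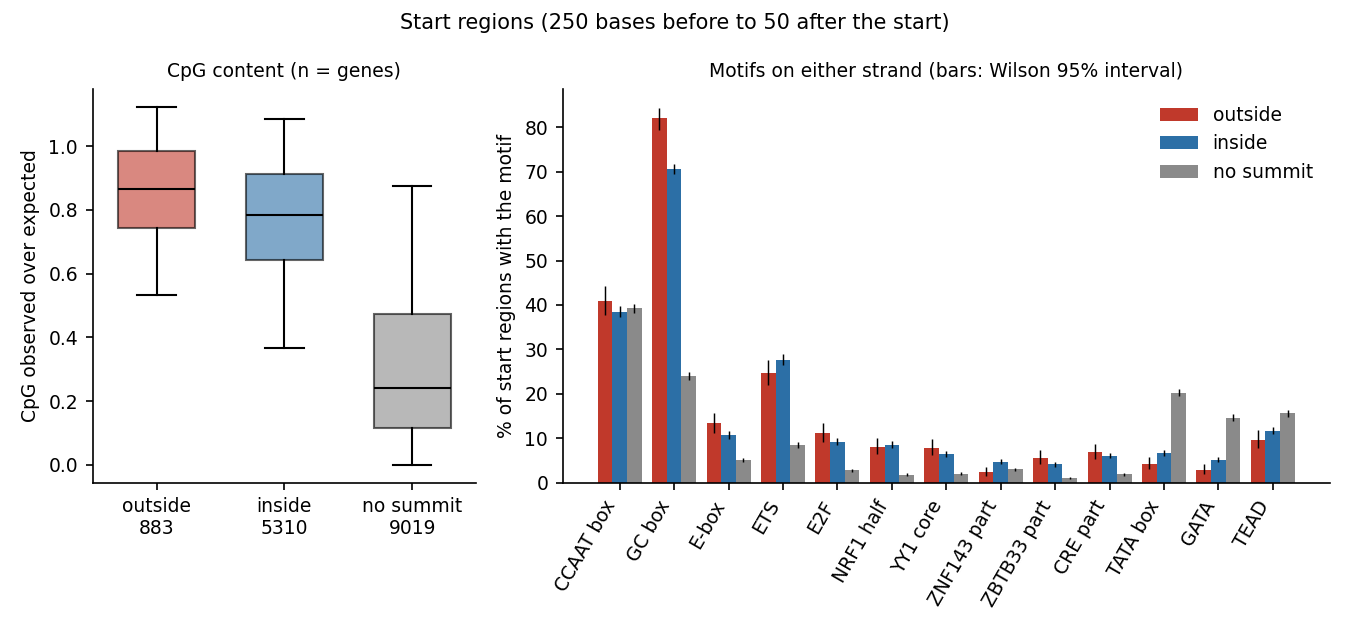
Left, ratio of observed to expected CG in start regions (y axis) of genes with a summit just outside (red), just inside only (blue) and none in reach (grey), with medians of 0.867, 0.785 and 0.241; boxes give quartiles and whiskers the 5th and 95th percentiles. Right, percent of the same start regions holding each of 13 motifs (y axis), with Wilson 95% intervals.

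Summits lay outside the genes of 16 transcription factors of heart development. Over all 21779 protein-coding genes, 1141 (5.24%) had at least 1 summit outside in reach of no other gene, and 34.7% had one just inside. Of 55 factors of heart development, 16 had a summit outside (29.1%, exact 95% interval 17.6 to 42.9) and 33 had one inside. Of the summits in reach of 1 of these genes alone and either just outside or just inside, 17 of 54 were outside (31.5%), against 12.98% over all genes. Their median score of 11.9 was below that of all summits outside, 16.1. The highest was at Sox11, of a SoxC factor of outflow tract formation, with 34.3 outside and 50.1 inside. Meis1, of a homeodomain partner of Hox and Pbx proteins, had 23.4 outside and none inside at that boundary, and its relative Meis2 5.59 outside and 26.5 inside. Irx5 had 22.2 outside and 23.0 inside.

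Among cardiac factor genes the outside summit was at times the stronger. Tbx2, of a T-box repressor of the atrioventricular canal, had 20.3 outside and 15.3 inside. Isl1, of the second heart field, had 16.1 outside, 345 bp before its start, and 4.68 inside. Bhlhe40, of a bHLH repressor, had 19.7 outside and 10.8 inside. Hey2, a Notch target of the compact myocardium, had 14.1 and 20.3, and Foxc1 11.9 and 14.8, each outside and then inside. Gata6, of a GATA factor of the outflow tract, had 10.2 and 20.9 in the same order, and Prdm16, linked to cardiomyopathy, 9.06 and 21.0. Hand2, of the right ventricle, had 8.25 outside and 10.7 for the nearer of 2 summits inside at that boundary. Sox9, of valve precursors, had 9.65 outside and 27.2 inside. Myocd, of the coactivator myocardin, had 10.5 outside, and Hand1, of the left ventricle, 5.81 at 947 bp, neither with a summit inside at that boundary. Of the scores outside these 16 genes, only that of Sox11 was above the median of all nuclear summits, 33.3.

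Genes of developmental signalling and of the Sin3 complex also had them. Of 89 genes of TGF-beta, BMP, Notch, Wnt and hedgehog signalling, 12 had a summit outside (13.5%, exact interval 7.17 to 22.4), with a median score of 13.6. Bmpr2, of a BMP receptor, was the highest, with 76.6 outside and 28.7 inside. Gsk3b, a kinase of the Wnt pathway, had 39.1 and 107, Smad6, an inhibitory SMAD, 30.8 and 42.9, and Smad7, its relative, 22.2 and 66.6, each outside and then inside. Of 31 genes of the Sin3 complex, 5 had one outside (16.1%, 5.45 to 33.7). These were Ing2 (43.1) and Ing1 (34.1), of PHD finger subunits, Foxk2 (22.4), of a forkhead factor, Sap30 (13.8) and Sap130 itself. The Sap130 summit outside had 15.7, 365 bp from the gene, against 138 for the nearer of 2 inside at that boundary.

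Cyclins and cyclin-dependent kinases had a summit outside in 10 of 42 genes (23.8%, exact interval 12.1 to 39.5), led by Ccng2. Next were Ccno, of an atypical cyclin of multiciliated cells (32.7), Cdk14 (32.3) and Cdk19, of a Mediator kinase (27.1). Of 93 Usp and Ube2 genes of deubiquitinating and ubiquitin-conjugating enzymes, 14 had one (15.1%, 8.48 to 24.0), with Ube2q1 at 85.4 outside and 76.8 inside and Ube2r2 at 64.2 and 40.6. Histone genes had them in 10 of 71 cases (14.1%, 6.97 to 24.4), 8 of 11 summits lying beyond the end, at a median score of 6.18. That list did not hold the histone variant genes H3f3a and H2az1, which had outside summits of 58.3 and 24.4, the latter before the start. Cytoplasmic ribosomal protein genes had 10 of 84 (11.9%, 5.86 to 20.8), with Rpl30 at 120 and Rpl35 at 71.1 and neither with a summit inside at that boundary. Genes named Rab with a number had 8 of 69 (11.6%, 5.14 to 21.6), led by Rab35 at 55.9. Proteasome genes had 6 of 51 (11.8%, 4.44 to 23.9), where Psme3 was followed by Psma5, of the 20S core, at 85.2. The mitochondrial carriers had 5 of 47 (10.6%), with Slc25a35 at 36.7, the DEAD and DEAH box helicases 4 of 53 (7.55%), with Dhx30 at 95.7 only 4 bp from the gene, and the kinesins 3 of 42 (7.14%), with Kif1b at 43.8 outside and 133 inside.

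Other lists stood near or under the 5.24% of all genes. The aminoacyl-tRNA synthetases had 2 of 34 (5.88%), Qars at 93.8 and Mars1 at 62.3, and the Tmem genes 14 of 238 (5.88%), led by Tmem9b at 61.2. Zfp genes had 19 of 397 (4.79%, exact interval 2.91 to 7.37), though 52.1% of them had one just inside; after Zfp768 came Zfp36l2 at 81.3 and Zfp592 at 66.4. The respiratory chain and ATP synthase had 2 of 87 (2.30%), Atp5b (19.0) and Atp5l (11.4), and the mitochondrial ribosomal proteins 1 of 78 (1.28%), Mrpl58, at 909 bp beyond its end (5.33). For these last lists 83.9% and 89.7% of genes had a summit in reach of some kind, those in reach of several genes included. This share was 48.4% over all genes, 90.3% for the Sin3 complex and 89.3% for cytoplasmic ribosomal proteins. For the proteasome it was 84.3%, and for cyclins and cyclin-dependent kinases 83.3%. Of summits just outside or just inside 1 gene alone, these 4 lists had 16.1%, 15.9%, 16.7% and 28.2% outside, against 12.98% over all genes. Histone genes had 42.3%, helicases 11.4% and kinesins 11.5%. Of 38 sarcomere genes only Tpm2, of a tropomyosin, had one (2.63%, 0.0666 to 13.8), with 9.28 outside and 9.05 inside. None was found at 33 endothelial, endocardial, epicardial and fibroblast markers (exact interval 0 to 10.6), at 39 Hox genes (0 to 9.03) or at 1109 olfactory receptor genes (0 to 0.332). These lists had few summits of any kind. The share of genes with any summit in reach was 39.5% for sarcomere genes, 27.3% for the markers, 5.13% for Hox genes and 0% for olfactory receptor genes.

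**Figure D5:**
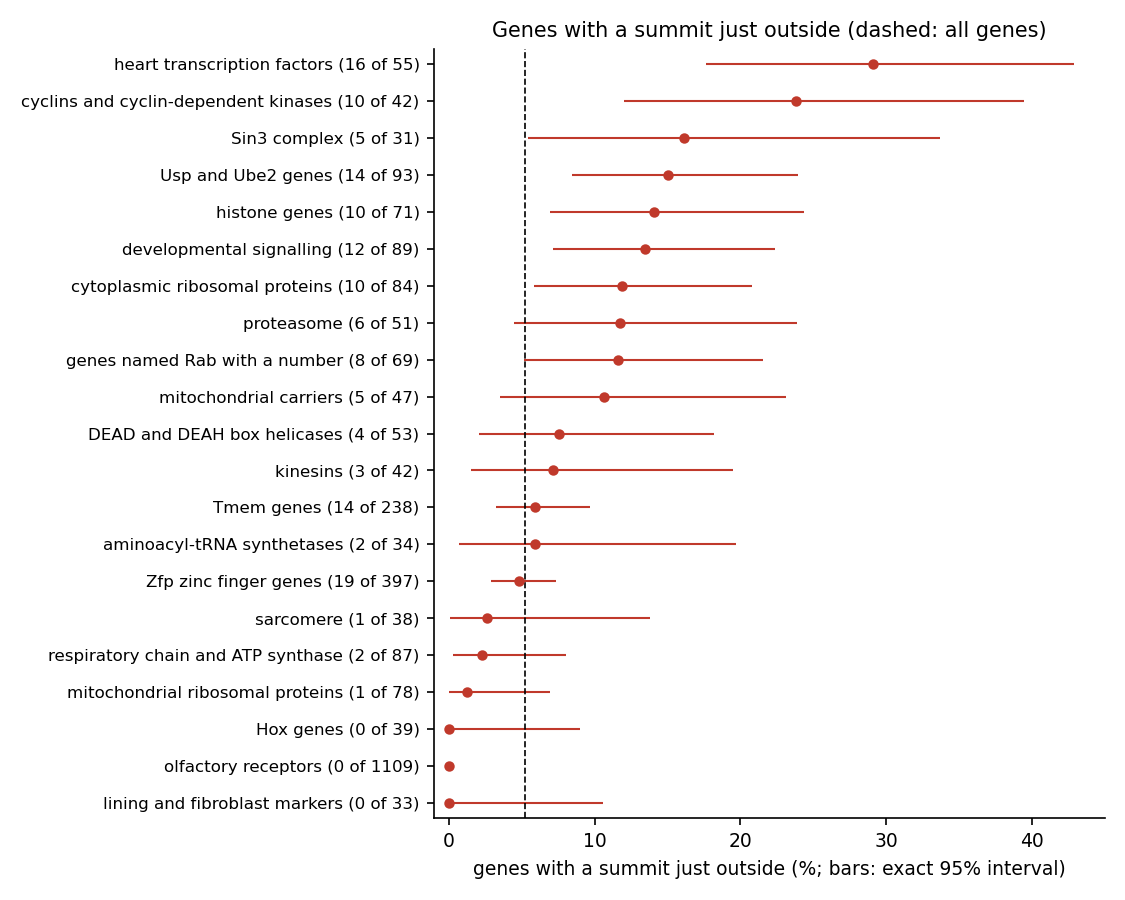
Percent of genes with a Sap130 summit just outside, in reach of no other gene (x axis), for 21 gene lists (rows, with the number of such genes of all genes in the list). Bars are exact 95% intervals and the dashed line is the 5.24% of all protein-coding genes; the heart transcription factors stand highest with 29.1%.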

How the data were processed

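Summits were mapped in 1 Sap130 ChIP library against 1 input library. Per the submitters' processing notes, the tools were Bowtie 1.1.2 and MACS2 2.1.0.20140616 and the build GRCm38 (mm10). Run settings: not given in the sources used here. Per the file's layout, the authors deposited 14886 summits of 1 base, each with a score that is −log10 of its p or q value; the choice between them is not recorded. The 5 on the mitochondrial genome were left out.

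Genes came from RefSeq GRCm38.p6. Of 49997 genes, 394 were left out (121 protein-coding): mitochondrial, on no named chromosome, or starting in the first 3000000 bp of a chromosome other than Y. A table of starts, with 300 bases around each, gave strand for 17492 of 21779 protein-coding genes (80.3%) and 79.6% of those with a summit outside. A summit beyond 1 boundary was put on the start side by that strand. Motifs were searched on both strands.

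Shares carry Wilson 95% intervals, gene lists exact ones, and medians order-statistic ones. With 1 ChIP library there was no test. The placement was checked on simulated positions. The members, and 21 lists by role or symbol, were chosen with earlier results of these data known. H13, which matched the histone pattern but is no histone gene, was left out of that list after its match was seen. Genes were named by a rule: the 20 highest scores, the 5 highest beyond the end and in genes of another type, those at the limits of distance, those with most summits, up to 4 per list, all for the heart factors, and those whose sequence is shown. Sap30, Abcf3, Dyrk1a, H3f3a, H2az1 and the genes with summits on both sides fall outside the rule and were named after their values were seen. Python 3.11.15, numpy 2.4.6, pandas 2.3.3, scipy 1.17.1 and matplotlib 3.10.9 were used. Alternatives were windows of 500 and 2500 bp, score limits, merging within 500 bp and other gene sets.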

Additional observations from a re-analysis of the deposited data

How the results depend on the processing

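Under the other settings, 65 values that describe the summits outside genes were recomputed. Of these, 36 stayed within the interval of the main value (counts, within 1.5 times) and 29 did not. Only the score difference, outside minus inside, could change sign, and it stayed negative. Windows of 500 and 2500 bp gave median distances of 277 and 320 bp. The smaller window gave 4.73% of genes with a summit outside, and the larger 94.7% on the start side and a score difference, outside minus inside, of -23.5.

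A limit on the score moved the most values. At or above the median score there were 270 summits outside, 5.35% of those in reach of 1 gene, at 1.24% of genes. Of these, 99.1% were on the start side. A summit that itself passed the limit lay inside the gene for 51.1%, and any listed summit for 181 of 270 (67.0%, 61.2 to 72.4). Their median score was 55.1, the score difference -11.0 and the median CG ratio 0.904. From the upper quartile of scores up there were 101, 3.96% of those in reach of 1 gene, at 0.464% of genes. There 98.8% were on the start side. An inside summit that also passed the limit was found for 27.7%, and any listed one for 58 of 101 (57.4%, 47.7 to 66.6). The median distance was 279 bp, the median score 85.2, the score difference -5.05 (-11.8 to 3.63, an interval that takes in 0) and the CG ratio 0.916. By its own construction a limit on the score raises the median score and removes weaker summits inside the genes, which lowers the share with one inside. The cause of the other shifts was not tested.

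Merging summits within 500 bp gave 11.6% of summits in reach of 1 gene, a median distance of 315 bp, a median score of 17.98, 75.2% with a summit inside the gene and 4.65% of genes. With genes of any type the share in reach of 1 gene was 11.4%. With the bases before the start only, the CG ratio was 0.855. Of 39 motif shares recomputed, 25 stayed within their interval.

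No paired analysis was possible because there was 1 library of each kind. Depth and replicate error are unknown, the score holds no fold over input, and a start listed in RefSeq need not be the one used in the heart. Without strand for 241 summits, their side stays unknown.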

Other observations

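Some summits outside coding genes lay near genes of small RNAs, which were not part of any comparison above. A tRNA gene was within 1000 bp of 11 of the 1173 (0.938%, Wilson interval 0.524 to 1.67), against 20 of 7865 summits just inside genes (0.254%, 0.165 to 0.392). By the rule the summits just inside lie in a coding gene, and shares over all nuclear summits were not computed for small RNA genes. The highest were a summit of 73.6 at Ctnna3, near the tRNA gene n-TStga3, and one of 57.7 at Smarcc2, of a SWI/SNF remodeller, near n-TScga2. The only summit outside Mrpl58 stood near n-TRcct5, n-TRcct3 and n-TRtcg4, and one at Ctc1 (6.31), beyond its end, near n-TIaat5, n-TSaga4 and n-TTagt8.

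A microRNA gene was within 1000 bp of 13 (1.11%, 0.649 to 1.89), against 64 of the summits just inside (0.814%, 0.638 to 1.04). For snoRNA genes the order was the other way, with 3 (0.256%, 0.0870 to 0.749) against 29 (0.369%, 0.257 to 0.529), and for both kinds the intervals overlapped. The summits near microRNA genes included Ring1, of a Polycomb protein (95.2), near Mir219a-1, Marf1 (28.1) near Mir484, and Cdk9, a kinase of transcription elongation (19.6), near Mir2861 and Mir3960. The summit of Zbtb37 (92.9) lay in Gas5, a host of small nucleolar RNAs, and that of Parp2, of DNA repair (16.3), in Rpph1, the RNA of ribonuclease P. All of these genes were picked after their values were seen.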
